A study of Mus musculus with 6 samples.

Results

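The Myc-Max-Mxd network was followed by RNA-seq after knockdown of the chromatin architecture protein CTCF in female germline stem cells (FGSCs) of the mouse, which were kept in culture. Its members were taken by gene symbol, by a rule that uses no measured value but was set with earlier results of these data known: the 3 Myc genes Myc, Mycn and Mycl, their partner Max, the repressors Mxd1, Mxd3, Mxd4, Mxi1 and Mnt, and the Max-like factor Mlx. These were 10 of the 24813 gene symbols in the deposited tables. The control group and the shCTCF group, which received a lentivirus with a short hairpin RNA against Ctcf and was selected with puromycin, held 3 samples each. Per the sample labels, all cells were of strain C57BL/6, had been passaged more than 20 times (the study's text gives a lower minimum for FGSCs) and grew on mitotically inactivated STO fibroblasts, a mouse embryonic feeder line. The methods of the study trace FGSCs to ovaries of neonatal Ddx4-Cre;mT/mG mice, in which the recombinase is driven by the germ cell gene Ddx4. What the control cells received is not given in the sources used here, and neither is whether the replicates came from separate cultures, so that p-values measure the spread between these samples.

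Proteins of this network carry a basic region, a helix-loop-helix and a leucine zipper, and most of them bind DNA only as dimers with Max. Dimers of Myc and Max bind the E-box CACGTG and recruit acetyltransferase complexes that raise transcription, above all of genes for ribosome assembly, nucleotide synthesis and cell division. Dimers of Max with an Mxd protein, Mxi1 or Mnt bind the same motif and recruit Sin3 and histone deacetylases, so that the balance between both kinds of dimer is known to follow growth and differentiation. In germline stem cells of the mouse, Myc proteins are known for a role in self-renewal.

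Ctcf mRNA was measured at 58.2, 56.1 and 53.5 FPKM (fragments scaled to transcript length and to the number of mapped fragments) in the controls and at 0.740, 0.550 and 0.629 FPKM in the shCTCF samples, which was 98.9% lower. Ctcf had 0 counts in all 6 samples, so the counts gave no second measurement of it. On FPKM the 9976 genes that averaged 1 FPKM or more were tested with limma, and 73.0% of them passed an adjusted p of 0.05, with 28.8% higher and 44.2% lower in shCTCF. On counts 7341 genes were tested with edgeR, and 69.1% passed, with 34.8% higher and 34.3% lower. Total counts lay between 1686052 in control replicate 2 and 7044272, so that 3 counts stood for 0.426 to 1.779 CPM (counts scaled to library size). The CPM given for genes below carry the normalization factors of edgeR (TMM) as well. Control replicate 2, in which Myc was also highest, stood apart from the other controls, with a chi-square per degree of freedom of 8.18 and 7.43 against them, compared with 2.04 to 3.72 for every other pair within a group. The markers of the labelled cell type were at or near 0: of 10 germ cell markers 5 (Dppa3, Gfra1, Nanos3, Dnd1 and Tfap2c) were listed at 0 FPKM in every sample and 9 stayed under 1 FPKM, Ddx4 and Dazl were at 0 in all controls, and the list summed to 0.0694 to 1.27 FPKM in controls and 11.3 to 12.2 FPKM in shCTCF, there mostly from Ifitm3. Of 12 fibroblast markers 3 (Col3a1, Col5a2 and Lum) were at 0 and 8 under 1 FPKM throughout, with sums of 10.1 to 10.8 FPKM in controls and 8.62 to 8.97 FPKM in shCTCF. Of 12 mast and myeloid cell markers 1 (Fcer1a) was at 0 and 3 were under 1 FPKM, and the list summed to 1774 to 1781 FPKM in controls and 1964 to 2034 FPKM in shCTCF. These marker values go against the label, so that the name FGSC is used here only as the labels give it, and the part of other cell types in the values below was not tested. In bulk RNA, fewer cells of a type and less RNA per cell cannot be told apart.

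Of the 10 members 7 reached the level needed for the test on FPKM. Max, Mxd1 and Mxi1 were higher in shCTCF, Myc, Mnt and Mxd4 were lower, and Mlx did not pass the threshold. The 6 of 7 that passed stand beside the 73.0% of all genes that passed. On counts 6 members could be tested, of which Mxd1 and Mxi1 were higher, Mnt was lower, and Max, Mxd3 and Mxd4 did not pass, beside 69.1% of all genes. For each of the 6 members that passed, the exact permutation test on FPKM (two-sided) returned p = 0.1, below which 3 against 3 samples cannot go. Where groups are said not to overlap below, the share of all genes without overlap was not counted, so this is no trait of the members.

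**Figure D1:**
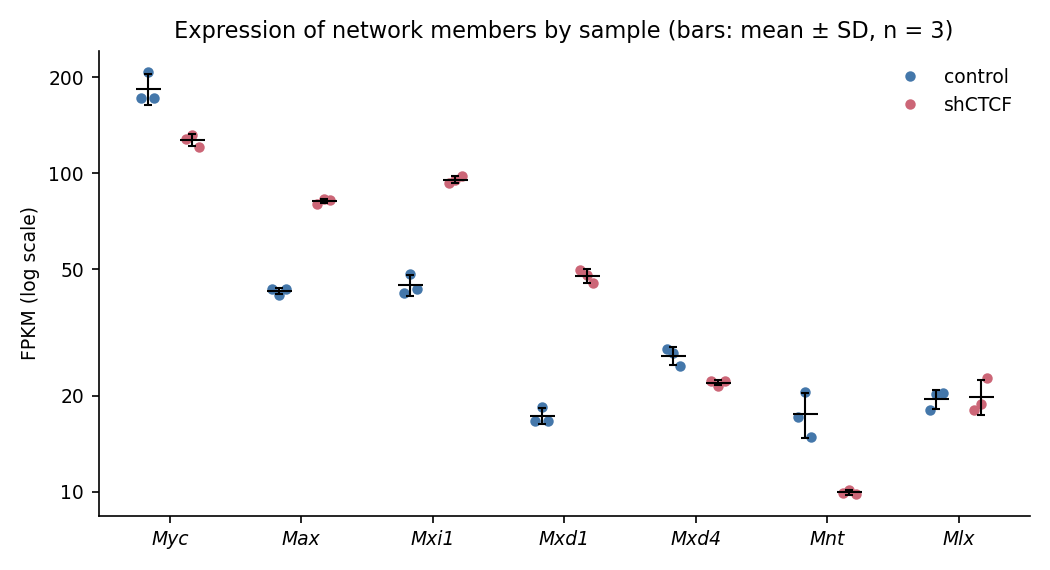
FPKM (log axis) of the 7 members that were tested, 1 point per sample, with the mean and SD of each group of 3. The points of control and shCTCF do not overlap for Myc, Max, Mxi1, Mxd1, Mxd4 and Mnt, and they overlap for Mlx. The share of all genes without overlap was not counted, and 73.0% of all genes tested passed in limma.

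Differences in sequence set the transcripts of Myc, Max and Mxi1 apart, and the values of these genes depend on which transcript is read. The sequences that tell the forms described here apart are shown first, read from mm9 on the strand of the gene. For Max, the capitals mark a 27-base exon on the minus strand at chr12:78062250-78062276 that NM_008558 holds and NM_001146176 lacks, between 15 bases of each adjoining exon.
Max NM_008558: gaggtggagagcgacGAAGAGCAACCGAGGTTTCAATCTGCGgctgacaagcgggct
Max NM_001146176: gaggtggagagcgacgctgacaagcgggct
The open reading frame runs for 160 codons with this exon and for 151 codons without it. For Mxi1, the capitals mark the start codon of the 2 transcripts with FPKM above 0, on the plus strand at chr19:53385190-53385249 and chr19:53404138-53404197.
Mxi1 NM_001008542: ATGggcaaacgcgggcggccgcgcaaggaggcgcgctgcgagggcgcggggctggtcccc
Mxi1 NM_010847: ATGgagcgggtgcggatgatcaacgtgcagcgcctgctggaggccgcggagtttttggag
Their reading frames hold 295 and 228 codons and begin in different first exons. For Myc, the capitals mark the 3 bases at the start of exon 2 (plus strand, chr15:61819062-61819091) that NM_010849 holds and NM_001177354 lacks.
Myc NM_010849: CAGacagccacgacgatgcccctcaacgtg

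Myc, the growth-promoting arm of the network, lies on the plus strand of chromosome 15 (chr15:61816896-61821916, mm9, 4 transcript accessions). The controls had 172, 208 and 172 FPKM and the shCTCF samples 128, 132 and 121 FPKM. Every shCTCF sample lay under every control, and control replicate 2 was the highest. The mean fell from 184 ± 21.0 to 127 ± 5.42 FPKM (SD, n = 3), which was 1.45-fold or 31.0% lower. Differences on FPKM are given as log2(FPKM + 1), on which the change of a low gene appears smaller than it is, and that of Myc was -0.53 (standard error 0.09, 95% interval -0.73 to -0.32) with an adjusted p of 8.7e-04 in limma. After scaling of all samples to a common median it was -0.34 with an adjusted p of 0.0107. Without control replicate 2 it was -0.44 with an adjusted p of 8.5e-05.

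Even after this fall Myc remained among the more abundant mRNAs: by mean FPKM it ranked 324 of 9976 genes in the control and 512 in shCTCF. By transcript, the lower level lay in NM_010849, at 125, 137 and 129 FPKM in the controls and 79.1, 88.6 and 76.5 FPKM in shCTCF. NM_001177354 had 46.4, 71.2 and 43.9 FPKM in the controls and 48.5, 43.5 and 44.8 FPKM in shCTCF, and its groups overlapped. The 2 transcripts differ by the CAG shown above, so the split between them rests on the estimate made by Cufflinks. The count table held 0 counts for Myc in all 6 samples, because no exon base of any Myc accession is free of another accession and such fragments were not assigned. It therefore gave no second measurement of Myc.

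The other Myc genes were at or near 0. Mycn, which drives growth in many embryonic cells (minus strand, chr12:12942899-12948642), was listed at 0 FPKM and had 0 counts in all 6 samples, although all its 2596 exon bases could be counted. Mycl, the third paralog (plus strand, chr4:122673174-122679723), had 0.0845, 0 and 0 FPKM in the controls and 0.153, 0.0905 and 0.108 FPKM in shCTCF, with 1 count in 1 shCTCF sample. Neither was tested, and no fold change is given because both groups lay at or under 3 counts. Nearly all Myc family mRNA was thus Myc itself.

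Max, the obligate partner through which Myc and the repressors reach DNA, lies on the minus strand of chromosome 12 (chr12:78038256-78063235, 4 accessions). It had 43.2, 41.6 and 43.2 FPKM in the controls and 80.2, 82.9 and 82.2 FPKM in shCTCF. All shCTCF samples lay far above the controls, and both groups were tight. The mean rose from 42.7 ± 0.890 to 81.8 ± 1.41 FPKM, which was 1.92-fold, with a log2 difference of 0.92 (standard error 0.06, 95% interval 0.79 to 1.06) and an adjusted p of 4.3e-06 in limma. Its rank among the genes tested moved from 1965 to 871.

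The whole control level of Max was assigned to NM_001146176, the form without the 27-base exon, which went from 43.2, 41.6 and 43.2 to 64.8, 82.9 and 67.4 FPKM. The longer NM_008558 was listed at 0 in all samples. In shCTCF replicates 1 and 3 a further 15.4 and 14.8 FPKM were assigned to NM_001361664, with a reading frame of 103 codons, and 0 in replicate 2, so the replicates did not share this split. The counts for Max, 18, 6 and 26 in the controls and 23, 14 and 12 in shCTCF, all fell in the 261 bases that belong to NM_001361663 alone. They gave a log2 difference of -0.09 (standard error 0.36, adjusted p = 0.836 in edgeR), and they do not measure the forms that make up the FPKM.

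**Figure D2:**
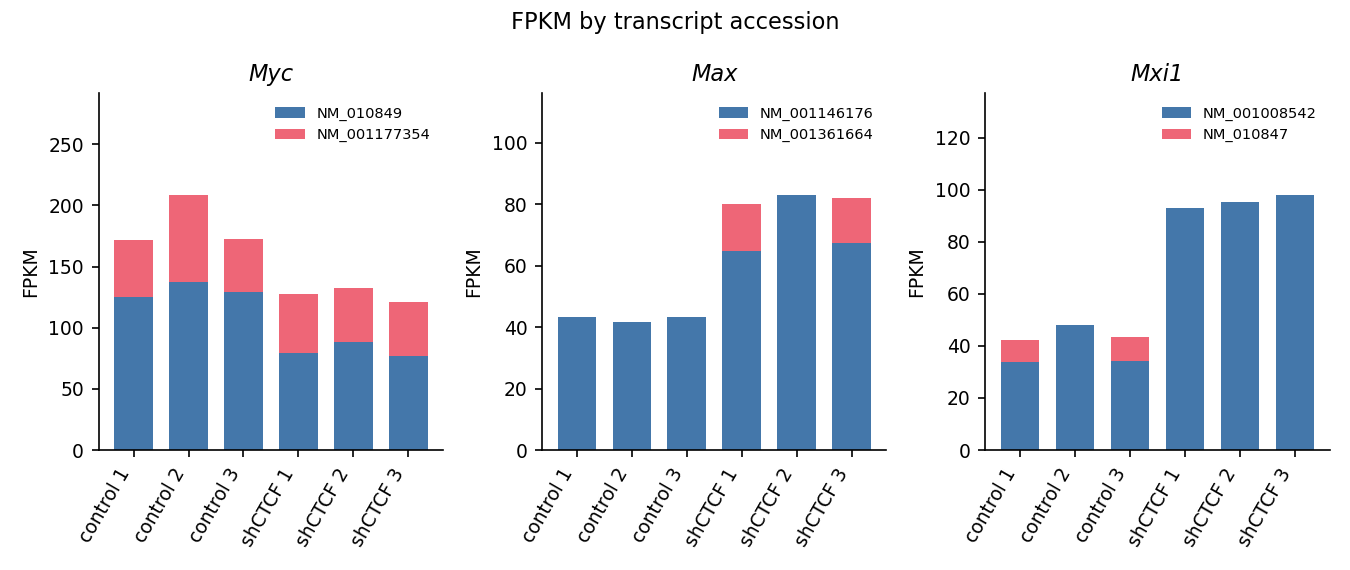
FPKM of the transcript accessions above 0 of Myc, Max and Mxi1 in each of the 6 samples, stacked within a gene. The lower Myc in shCTCF lies in NM_010849, the higher Max mostly in NM_001146176, and the higher Mxi1 in NM_001008542, the only Mxi1 form above 0 in shCTCF.

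Among the repressors, Mxd1 and Mxi1 rose on both tables. Mxd1, a repressor that is known to appear as cells leave the cell cycle and differentiate, lies on the minus strand at chr6:86597039-86619153. It had 16.7, 18.5 and 16.7 FPKM in the controls and 49.8, 47.9 and 45.2 FPKM in shCTCF. The groups lay far apart, with means of 17.3 ± 1.06 and 47.6 ± 2.34 FPKM. This 2.75-fold rise was the largest among the members tested on either table, at a log2 difference of 1.41 (standard error 0.08, 95% interval 1.23 to 1.59) and an adjusted p of 2.0e-06 in limma. Mxd1 has a single accession and all its 4661 exon bases could be counted, so here the count table measures the same transcript. Its counts were 928, 257 and 975 in the controls and 2525, 2180 and 2600 in shCTCF. After scaling for library size with TMM factors these were 137 ± 5.78 and 435 ± 28.7 CPM. The log2 difference on counts was 1.68 (standard error 0.08, adjusted p = 3.4e-09 in edgeR). By FPKM its rank moved from 4371 to 1551.

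Mxi1, a repressor of the same family, lies on the plus strand at chr19:53384996-53447783 with 7 accessions. It had 42.1, 48.2 and 43.3 FPKM in the controls and 93.1, 95.2 and 97.8 FPKM in shCTCF. Again no sample overlapped, and the mean rose 2.14-fold from 44.5 ± 3.21 to 95.3 ± 2.36 FPKM. The log2 difference was 1.08 (standard error 0.07, 95% interval 0.92 to 1.25) with an adjusted p of 5.4e-06 in limma. Its counts were 113, 31 and 160 in the controls and 285, 252 and 326 in shCTCF, a log2 difference of 1.45 (standard error 0.13, adjusted p = 1.1e-06 in edgeR).

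The transcripts of Mxi1 differed in level, given here as descriptions with no test. NM_001008542, which starts at the upstream first exon, went from 33.8, 48.2 and 34.2 FPKM to 93.1, 95.2 and 97.8 FPKM. NM_010847, which starts at the downstream exon, had 8.31, 0 and 9.10 FPKM in the controls and was listed at 0 in every shCTCF sample. Control replicate 2 was thus at 0 like shCTCF, so the groups of NM_010847 overlapped. The split between both forms rests on the estimate made by Cufflinks. The other 5 accessions were at 0 throughout. Nearly all counts came from the 468 bases that only NM_001008542 holds, at 107, 31 and 155 counts for control and 285, 247 and 321 for shCTCF, so both tables placed the higher level in the form whose first coding bases are shown above. For NM_010847 no base was free of other accessions, and its level has no check on counts.

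Mnt, a large repressor that is present in most cells and opposes Myc in cycling cells, lies on the plus strand at chr11:74644426-74659227 and has 1 accession. It had 17.2, 20.6 and 14.9 FPKM in the controls and 9.94, 10.1 and 9.80 FPKM in shCTCF. The controls were spread and the shCTCF samples were not, but no sample overlapped. The mean fell 1.76-fold from 17.5 ± 2.86 to 9.96 ± 0.177 FPKM, with a log2 difference of -0.75 (standard error 0.12, 95% interval -1.02 to -0.48) and an adjusted p of 6.1e-04 in limma. On counts it went from 962, 285 and 886 to 490, 465 and 566, or from 140 ± 19.2 to 90.5 ± 2.24 CPM. Its log2 difference on counts was -0.60 (standard error 0.10, adjusted p = 2.0e-04 in edgeR). Mnt thus moved in the opposite direction to Mxd1 and Mxi1 on both tables.

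Mxd4, a repressor of the Mxd family (minus strand, chr5:34519229-34530359, 1 accession), was a member whose call depended on the table. It had 28.0, 27.3 and 24.8 FPKM in the controls and 22.2, 21.5 and 22.2 FPKM in shCTCF, without overlap. The mean went from 26.7 ± 1.69 to 22.0 ± 0.416 FPKM, 17.7% lower, with a log2 difference of -0.27 (standard error 0.07, 95% interval -0.44 to -0.10) and an adjusted p of 0.0116 in limma. After scaling to a common median the difference was -0.09 with an adjusted p of 0.298. Its counts were 436, 110 and 417 in the controls and 340, 312 and 385 in shCTCF. With TMM scaling the groups overlapped at 60.4 ± 3.29 and 61.7 ± 1.28 CPM. Here the log2 difference was 0.03 (standard error 0.09, adjusted p = 0.765 in edgeR). With scaling by library size only it was -0.14 (adjusted p = 0.229 in edgeR).

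Mxd3, an Mxd repressor that is known to be expressed in S phase (minus strand, chr13:55426529-55431091), was listed at 0 FPKM in all samples but had counts. These were 47, 6 and 35 in the controls and 34, 35 and 46 in shCTCF, or 4.97 ± 1.74 and 6.81 ± 0.498 CPM. The groups overlapped, with a log2 difference of 0.34 (standard error 0.26, adjusted p = 0.256 in edgeR). Its exons overlap those of Prelid1 in part, 1194 of 1299 exon bases being its own. The counting used no strand and left fragments in the shared bases unassigned, so the counts of Mxd3 come from its own bases.

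Mlx, which pairs with the glucose-sensing factors Mlxip and Mlxipl and with some Mxd proteins in place of Max, lies on the plus strand at chr11:100948604-100953521 with 3 accessions. It had 18.0, 20.2 and 20.4 FPKM in the controls and 18.1, 18.9 and 22.7 FPKM in shCTCF. The groups overlapped, and the means of 19.6 ± 1.31 and 19.9 ± 2.46 FPKM gave a log2 difference of 0.02 (standard error 0.10, adjusted p = 0.861 in limma, exact two-sided permutation p = 0.8). The 95% interval of the difference ran from -0.22 to 0.26. Under its accessions, NM_001159385 reached at most 15.6 FPKM in the controls and 13.1 FPKM in shCTCF, and NM_011550 had 4.81 to 8.08 and 5.81 to 12.5 FPKM. At most 3 counts were assigned to Mlx in a sample, since only 162 of its exon bases, next to the overlapping gene Psmc3ip, could be counted.

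**Figure D3:**
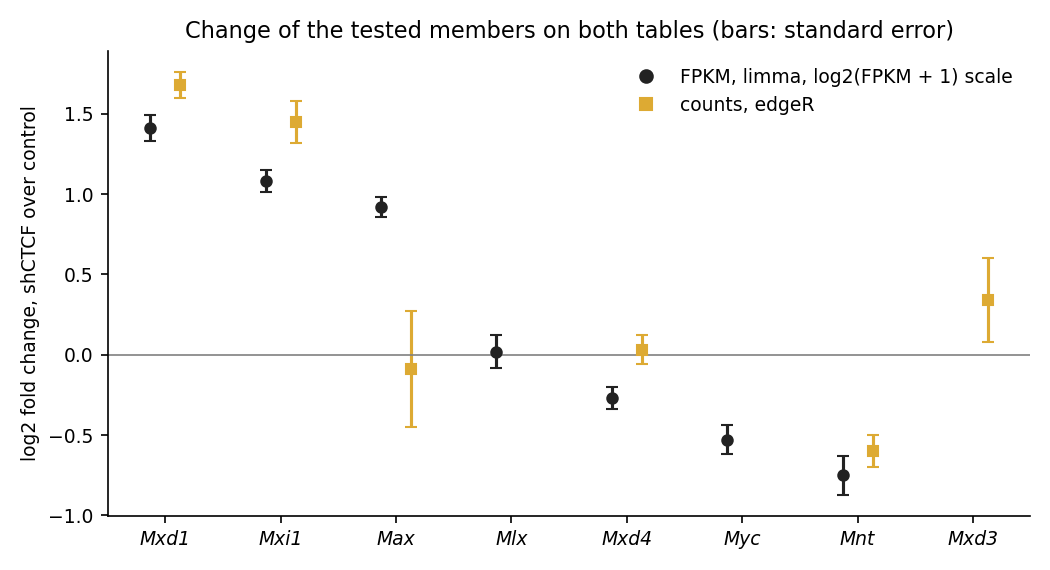
Log2 difference, shCTCF over control, of each member tested on FPKM (circles, limma) or on counts (squares, edgeR), with standard errors. Mxd1 and Mxi1 lie above 0 and Mnt below 0 on both tables, Mxd4 lies below 0 on FPKM and close to 0 on counts, and Max lies above 0 on FPKM only.

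Set side by side per length, as FPKM allows, Myc was the most abundant member in both groups. In the control, Mxi1 and Max followed with overlapping samples, then Mxd4, and then Mlx, Mnt and Mxd1, whose samples overlapped. In shCTCF the order was Myc, Mxi1, Max and Mxd1 without overlap between neighbours, then Mxd4 and Mlx, which overlapped, and Mnt last. Mxd1 thus stood last or near last in the control and above Mxd4, Mlx and Mnt in shCTCF, and Mnt went to the bottom.

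The FPKM of the 5 repressors summed to 104, 115 and 99.7 in the controls and to 175 in each shCTCF sample. The ratio of Myc family FPKM to this sum was 1.65, 1.82 and 1.73 among controls, against 0.730, 0.757 and 0.694 for shCTCF. Myc exceeded the repressor sum in every control and lay under it in every shCTCF sample. Of the summed FPKM of the Myc family and the 5 repressors, Myc made up 62.3%, 64.5% and 63.4% in the controls and 42.1%, 43.0% and 40.9% in shCTCF. Max itself went from 0.157, 0.129 and 0.159 of this sum to 0.265, 0.270 and 0.277. The sum leaves out Mga, a further Max partner, and holds Mxd3 at 0 FPKM although it had counts. These sums and shares are descriptions of mRNA and were not tested, and protein was not measured here.

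**Figure D4:**
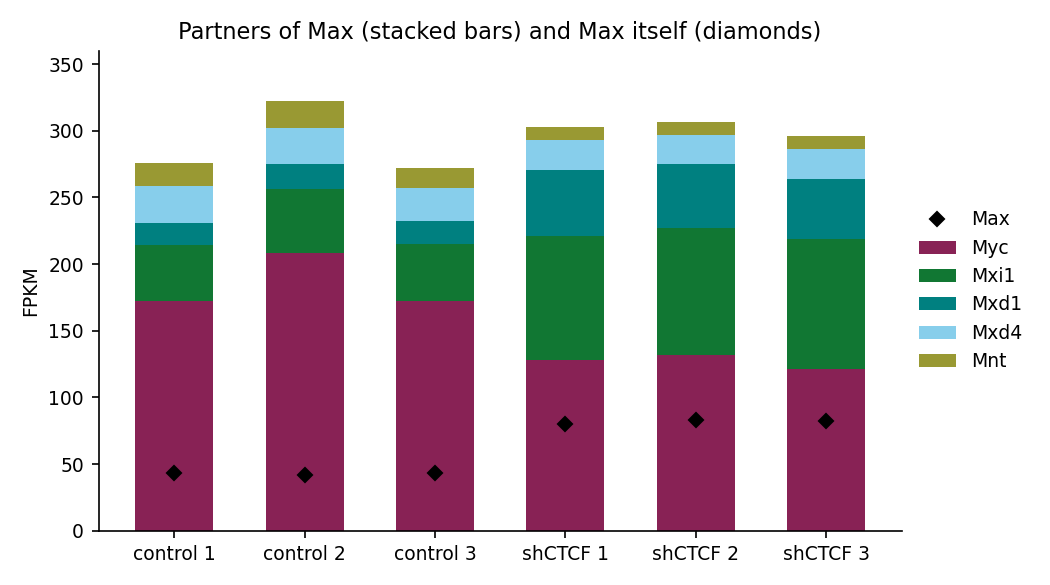
FPKM of Myc, Mxi1, Mxd1, Mxd4 and Mnt stacked in each sample, with Max as diamonds. The stack of Myc makes up 62.3% to 64.5% of the bar in the controls and 40.9% to 43.0% in shCTCF, where Mxi1, Mxd1 and Max are higher.

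Besides the members, 3 genes of the extended network were followed. Mga, a Max partner with a T-box, was at 9.99 ± 1.10 and 8.76 ± 0.246 FPKM, a log2 difference of -0.17 with an adjusted p of 0.156 in limma. Mlxip (MondoA), a partner of Mlx, was at 8.87 ± 0.638 and 9.38 ± 0.388 FPKM, with 0.07 and an adjusted p of 0.461, while on counts its log2 difference of 0.23 had an adjusted p of 0.0358 in edgeR, a call that was lost with scaling by library size only. Mlxipl (ChREBP) stayed under 1 FPKM and was not tested. The Mlx and Mondo target Txnip, an inhibitor of thioredoxin and of glucose uptake, rose from 50.4, 55.0 and 48.6 FPKM to 101, 99.0 and 103 FPKM (log2 difference 0.97, adjusted p = 7.3e-06 in limma). Its relative Arrdc4 was at or near 0 in every sample.

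The lists of cofactors of the 2 kinds of dimer were lower. The list of Myc co-activators also counts Zbtb17 (Miz1), a Myc partner rather than a recruited co-activator. All 12 genes of this list fell on FPKM, where 44.2% of all genes did. Their median log2 difference was -0.85 beside -0.17 over all genes tested. On counts 8 of 9 tested fell, beside 34.3% of all genes, with a median of -0.59 beside -0.02. Ruvbl2, an ATPase of the Tip60 complex, fell from 142, 158 and 145 FPKM to 28.4, 32.9 and 27.2 FPKM (log2 difference -2.29, standard error 0.09, adjusted p = 3.7e-07 in limma). Kat2a (Gcn5), an acetyltransferase that Myc recruits, went from 43.6 ± 2.52 to 11.2 ± 0.747 FPKM (-1.87, standard error 0.08, adjusted p = 7.0e-07). After scaling to a common median, 11 of the 12 were lower. The scaffold Trrap and the partner Zbtb17 belonged to the genes that fell, at -0.75 and -0.80.

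The 7 co-repressors of the Mxd proteins and Mnt also all fell on FPKM, beside 44.2% of all genes, with a median of -0.61 beside -0.17. Sap30, a subunit of the Sin3 complex, went from 106 ± 3.92 to 47.4 ± 2.17 FPKM (-1.15, standard error 0.06, adjusted p = 2.5e-06 in limma). Sap18 of the same complex had 2.81 ± 0.149 FPKM in the control and was listed at 0 in shCTCF, and on counts its log2 difference was -0.77 with an adjusted p of 0.00468 in edgeR. Of the Sin3 scaffolds, Sin3a (-0.90 on FPKM) could not be tested on counts. Sin3b, lower on FPKM at -0.52, was higher on counts at 0.67 with an adjusted p of 6.1e-04 in edgeR. In the control it had 93.3 ± 16.4 FPKM but 28.8 ± 5.63 CPM. Counts leave out fragments shared by several accessions, so both values need not measure the same transcripts. In all, 4 co-repressors were lower and 1 was higher of 6 tested on counts, beside 34.3% and 34.8% of all genes, with a median of -0.37 beside -0.02.

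Of 10 genes that act on the stability of Myc protein, 2 were higher and 7 lower on FPKM, beside 28.8% and 44.2% of all genes, with a median of -0.79 beside -0.17. On counts 1 was higher and 5 lower of 6, beside 34.8% and 34.3%, with a median of -0.75 beside -0.02. The ones that rose on FPKM were Fbxw7, the ubiquitin ligase subunit that marks phosphorylated Myc for degradation, and Gsk3b, the kinase that phosphorylates the site Fbxw7 recognises. Fbxw7 went from 9.82, 9.63 and 9.29 FPKM to 15.1, 16.0 and 16.0 FPKM (log2 difference 0.66, standard error 0.07, adjusted p = 9.9e-05 in limma). It was also the higher gene on counts, at 0.58 with an adjusted p of 0.0311 in edgeR and overlapping groups, and with scaling by library size only no turnover gene was higher (0 of 6). Gsk3b went from 22.2 ± 1.23 to 28.6 ± 0.407 FPKM (0.35, adjusted p = 0.00256). The largest falls were those of Plk1, a mitotic kinase that stabilises Myc, from 38.1 ± 1.71 to 5.34 ± 0.310 FPKM (-2.63, adjusted p = 1.3e-07), and of Set, an inhibitor of the phosphatase PP2A, from 434 ± 31.8 to 155 ± 7.62 FPKM (-1.47, adjusted p = 1.3e-06). The listed ubiquitin ligase gene Huwe1 fell as well, by -0.91 on FPKM (adjusted p = 9.4e-06 in limma) and -0.74 on counts (adjusted p = 4.0e-07 in edgeR). Skp2, a ligase subunit, did not pass (-0.04, adjusted p = 0.828 in limma). The list mixes genes of opposite effect on Myc, so its median gives no direction for Myc stability, which was not tested.

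Genes known in general as activated by Myc were lower in shCTCF more often than higher. Of 33 tested of 34 listed, 28 fell and 4 rose, beside 44.2% and 28.8% of all genes, with a median log2 difference of -1.04 beside -0.17. On counts 20 fell and 2 rose of 25, beside 34.3% and 34.8%, with a median of -0.71 beside -0.02. Srm, the spermidine synthase, went from 243, 284 and 249 FPKM to 31.6, 27.4 and 25.9 FPKM (-3.15, standard error 0.09, adjusted p = 1.4e-07 in limma). Shmt2, which feeds folate metabolism in mitochondria, went from 229 ± 22.6 to 35.4 ± 1.84 FPKM (-2.66, standard error 0.08, adjusted p = 1.7e-07). Their 95% intervals ran from -3.37 to -2.93 for Srm and from -2.85 to -2.46 for Shmt2. Both were named for the largest falls of the list on FPKM, so no comparison with Myc itself is drawn from them.

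The 4 that rose were the cyclin Ccnd2, the cell cycle phosphatase Cdc25a, the transferrin receptor Tfrc and the lactate dehydrogenase Ldha, the last 2 named after their values were seen. Ccnd2 went from 35.3, 34.9 and 33.0 FPKM to 197, 189 and 181 FPKM (2.42, standard error 0.06, adjusted p = 7.3e-08 in limma). Cdc25a went from 5.89 ± 0.372 to 14.4 ± 1.52 FPKM (1.16, standard error 0.10, adjusted p = 2.5e-05). Tfrc went from 49.2 ± 14.4 to 104 ± 4.29 FPKM (1.11, standard error 0.20, adjusted p = 0.00133). Ldha differed by 0.26 on FPKM and by -0.20 on counts, where its adjusted p was 0.562 in edgeR. It had at most 35 counts in a sample beside 1841 ± 37.1 FPKM in the control, so the counts are a weak check. The list comes from general knowledge of Myc, binding was not measured here, and what part Myc has in these differences was not tested.

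Of 8 genes known as repressed by Myc, 5 were tested on FPKM, of which 3 rose and 2 fell, beside 28.8% and 44.2% of all genes, with a median of 0.47 beside -0.17. On counts 3 of 4 rose and 1 fell, beside 34.8% and 34.3%, with a median of 0.86 beside -0.02, and with scaling by library size only 2 rose. Ndrg1, a differentiation and stress gene, went from 257, 304 and 257 FPKM to 1350, 1308 and 1251 FPKM (2.26, standard error 0.08, adjusted p = 2.7e-07 in limma). Cdkn1a (p21), an inhibitor of cyclin-dependent kinases, went from 68.7, 72.7 and 72.4 FPKM to 314, 293 and 280 FPKM (2.04, standard error 0.06, adjusted p = 1.6e-07). On counts, with at most 25 in a sample and overlapping groups after scaling, Cdkn1a differed by 0.99 with an adjusted p of 0.0441 in edgeR. Its relative Cdkn1b (p27) moved the other way, from 58.3 ± 3.69 to 23.1 ± 0.774 FPKM (-1.30, adjusted p = 2.5e-06). Ndrg2 also fell, by 0.42 on the log2 scale (adjusted p = 0.00252). The list did not move in 1 direction.

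**Figure D5:**
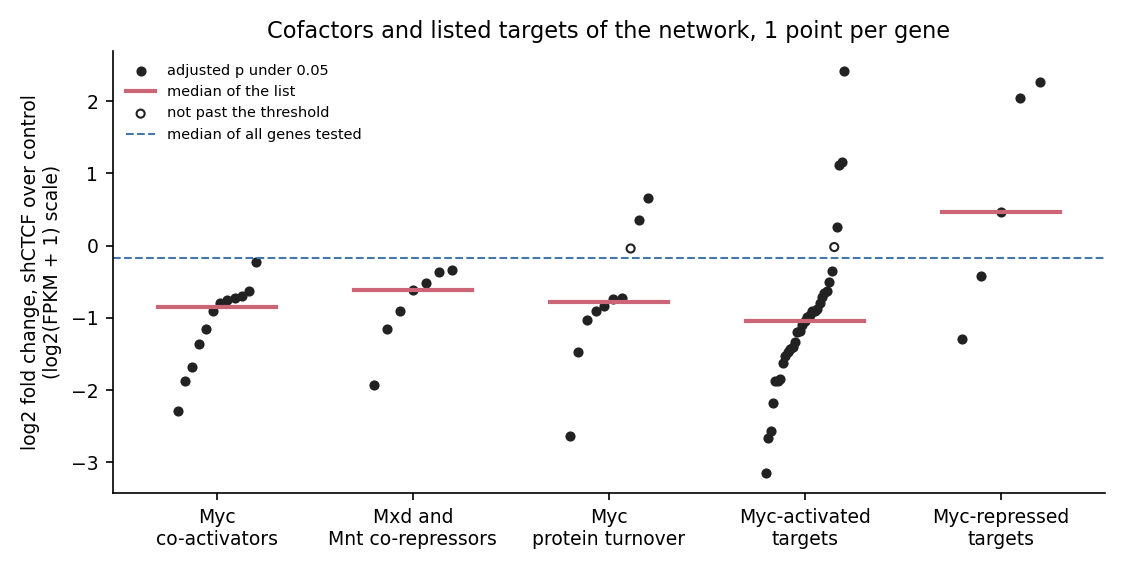
Log2 difference, shCTCF over control, on the log2(FPKM + 1) scale for each tested gene of 5 lists, with the median of each list (bar) and of all 9976 genes (dashed line at -0.17). Co-activators and co-repressors all lie below 0, and the activated targets have a median of -1.04 with 4 genes above 0 that passed the threshold.

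Other programs moved with these values in the same samples. The 10 interferon response genes all rose on FPKM, beside 28.8% of all genes. Their sum went from 18.6 to 21.1 FPKM in the controls to 774 to 813 FPKM in shCTCF. Usp18, which removes the ubiquitin-like protein Isg15, went from 0.354 ± 0.312 to 98.3 ± 5.29 FPKM, and Ifit1, an antiviral RNA-binding protein, from 0.636 ± 0.0775 to 112 ± 8.75 FPKM. The only germ cell marker tested on FPKM, Ifitm3, which is also induced by interferon, rose from 0.737 ± 0.646 to 10.8 ± 0.327 FPKM (log2 difference 2.84, adjusted p = 4.6e-05 in limma). On counts Ifitm3 and Prdm1, a repressor of somatic genes in germ cell precursors, were tested and both rose, beside 34.8% of all genes. Prdm1 went from 5, 1 and 5 counts to 41, 42 and 51 counts (3.50, adjusted p = 1.3e-06 in edgeR). Among the mast and myeloid cell markers 4 of 9 tested rose and 2 fell on FPKM, beside 28.8% and 44.2% of all genes. After scaling to a common median 7 rose and 2 fell, where 3481 of all 9976 genes were higher and 3606 lower. Hdc, which makes histamine, and the lysozyme gene Lyz2 rose, from 4.25 ± 0.219 to 87.2 ± 7.58 FPKM and from 0.0274 ± 0.0475 to 3.29 ± 0.731 FPKM, while the proteases Ctsg and Cpa3 fell, from 151 ± 19.4 to 2.22 ± 0.278 FPKM and from 281 ± 56.7 to 88.0 ± 13.1 FPKM. Of 4 fibroblast markers tested on FPKM, Thy1 and Pdgfra rose and Pdgfrb and Dcn fell, beside 28.8% and 44.2% of all genes. None of the 4 was above 6.09 FPKM in the mean of a group. On counts 3 were tested and all rose in edgeR, beside 34.8% of all genes. Thy1 rose by 2.80, Pdgfra by 1.86 and Fbn1 by 3.01 on the log2 scale. The part of any of these programs in the differences of the network was not tested.

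The E-box was searched in RefSeq promoter windows of 300 bases around gene starts (GRCm38.p6), as CACGTG, which reads the same on both strands. Of 32851 windows 7.15% held it, and of 27025 symbols 8.09% did in at least 1 window. Myc had no entry and was not searched. Of the 9 members with an entry, 4 held it: Max, Mxd4, Mnt and Mlx. The 30 bases around each match are printed in the direction of the gene with the E-box in capitals, since the motif is the one that the network itself binds.
Max promoter (minus strand, chr12:76962234-76962263): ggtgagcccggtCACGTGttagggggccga
Mxd4 promoter (minus strand, chr5:34187912-34187941): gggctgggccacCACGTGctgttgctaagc
Mnt promoter (plus strand, chr11:74830789-74830818): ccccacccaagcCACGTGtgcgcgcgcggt
Mlx promoter (plus strand, chr11:101087238-101087267): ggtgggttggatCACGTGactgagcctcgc
The match began 3 bases before the start of Max, 40 before that of Mlx, 123 before that of Mnt and 219 before that of Mxd4. The members with the motif did not share a direction, as Max rose, Mnt and Mxd4 fell on FPKM and Mlx did not pass the threshold, while Mxd1 and Mxi1, which rose most, had none in their windows. Of the 28 activated targets with an entry 7 held the motif, compared with 1 of 11 co-activators, 1 of 9 turnover genes, and none of 6 co-repressors and 6 repressed targets. A match is a string of letters and not a measured site.

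Genes beside the members were followed because CTCF shapes contacts over such distances. Of 8 neighbours listed, 7 were tested on FPKM, with 2 higher and 4 lower, beside 28.8% and 44.2% of all genes, and a median of -0.54 beside -0.17. On counts 2 were higher and 3 lower of 6, beside 34.8% and 34.3%, with a median of -0.17 beside -0.02, and with scaling by library size only 1 was higher. These shares lie near those of all genes. Pvt1, a long noncoding RNA gene 47.6 kb from Myc, had 2.65, 1.44 and 2.53 FPKM in the controls and 4.62, 5.66 and 3.79 FPKM in shCTCF (log2 difference 0.84, standard error 0.19, adjusted p = 0.00491 in limma). It rose while Myc fell, and on counts its log2 difference was 2.03 with an adjusted p of 9.4e-04 in edgeR. Fut8, 276 kb from Max, rose like Max from 13.4 ± 2.69 to 29.0 ± 1.28 FPKM (1.07, adjusted p = 2.1e-04). Trit1, 14.1 kb from Mycl, fell from 14.0 ± 1.01 to 6.19 ± 0.113 FPKM (-1.06, adjusted p = 1.5e-05), and Nbas, 327 kb from Mycn, fell from 8.63 ± 1.00 to 2.65 ± 0.339 FPKM (-1.40, adjusted p = 2.1e-05). Chromatin contacts were not analysed here.

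The genes whose pattern was most like that of Myc were found by the root mean square difference of log2(FPKM + 1), each gene centred on its own mean over the 6 samples. Lasp1, an actin-binding protein, differed from Myc by 0.026 on this scale, with 27.6, 34.7 and 27.5 FPKM in the controls and 19.7, 20.9 and 19.7 FPKM in shCTCF. Adrm1, a ubiquitin receptor of the proteasome, differed by 0.028, and Fermt3, an integrin activator of blood cells, by 0.029. All 3 were highest in control replicate 2, as Myc was, which follows from their choice by likeness over these same samples. In all, 440 genes lay under 0.1, so that the profile of Myc over these samples was shared by many genes.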

How the data were processed

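RNA-seq of 3 control and 3 shCTCF samples of FGSCs was analysed. Per the submitters' processing notes and the file headers, stranded mRNA libraries were aligned to mm9 with HISAT2 4.8.2. The deposited FPKM values were made by the authors with Cufflinks 2.2.1 per RefSeq accession. The deposited counts are whole fragments per accession from featureCounts 1.6.2, not normalized, counted without strand, and fragments shared by exons of several accessions went unassigned. A repeated header line at the end of the FPKM table was dropped. Value columns without a sample numbered 0.

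Accessions received symbols from a RefSeq table of GRCm38.p6 (41186 of 41388 accessions with counts, 41685 of 41876 entries with FPKM), and values were summed per symbol. Promoter windows came from RefSeq, other sequences from mm9. Genes that averaged 1 FPKM or more were tested with limma 3.58.1 (lmFit, eBayes with trend) on log2(FPKM + 1), and counts with edgeR 4.0.16 (TMM, filterByExpr, quasi-likelihood test, R 4.3.3). P-values were two-sided with Benjamini-Hochberg adjustment over all genes, at 0.05. Both fits were tested on simulated data. The chi-square per degree of freedom between replicates of a group lay between 2.04 and 8.18, with both highest values from control replicate 2. No pair thus differed by counting error alone. This cannot tell separate cultures from repeat libraries of the same culture. Counting floors cover counting error only.

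The members and lists were chosen with earlier results of these data known. Named besides the members and Ctcf were up to 2 genes of each list with the largest rise and up to 2 with the largest fall on FPKM, with an adjusted p under 0.05 and no overlap of groups, all genes of lists of up to 3, and the 3 genes most like Myc. Trrap, Zbtb17, Sin3a, Sin3b, Huwe1, Skp2, Tfrc, Ldha, Prdm1 and Fbn1 were named after their values were seen. Alternatives were pseudocount 0.1, a filter at 5 FPKM or none, equal medians, the accession with the highest mean, no trend, DESeq2 1.42.0, its size factors, library size only, a replicate block, and omission of each replicate. Equal medians and library size only for the lists, and the lists without control replicate 2, were added after seeing the data.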

Additional observations from a re-analysis of the deposited data

How the results depend on the processing

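Myc, Max, Mxd1, Mxi1 and Mnt kept their direction and passed the threshold on FPKM under all 13 alternatives, with log2 differences of -0.67 to -0.34 for Myc, 0.73 to 1.10 for Max, 1.38 to 1.59 for Mxd1, 1.04 to 1.30 for Mxi1 and -0.85 to -0.58 for Mnt. On counts Mxd1, Mxi1 and Mnt did so under all 11. Mxd4 on FPKM lost its call when samples were scaled to the same median, at -0.09 with an adjusted p of 0.298. That scaling moved the median of all genes from -0.17 to -0.01 and the called genes from 2876 higher and 4405 lower to 3481 and 3606. Under it 6 of 7 co-repressors, 7 of 10 turnover genes and 28 of 33 activated targets were lower, and 5 activated targets were higher. Library size only moved the median on counts from -0.02 to -0.19 and the calls from 2553 higher and 2521 lower to 2167 and 3059. On counts it ended the calls of Mlxip, of Fbxw7 and of 1 repressed target, 1 neighbour and 1 mast and myeloid marker that had been higher.

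Differences that did not pass the threshold changed sign as follows, and the cause was not tested. Mlx on FPKM was -0.12 for the accession with the highest mean, and -0.07 to 0.08 when 1 replicate was left out (-0.03 without control replicate 1, -0.07 without shCTCF replicate 3). Max on counts ranged from -0.43 to 0.19 when 1 replicate was left out (0.07 without control replicate 3, 0.19 without shCTCF replicate 3). Mxd4 on counts was -0.14 with library size only and -0.01 to 0.08 when 1 replicate was left out (-0.01 without control replicate 3).

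The replicate numbers shared by both groups did not pair the samples, with correlations of deviations of -0.041, 0.018 and 0.0395. With the replicate number as a block, 7137 genes passed on FPKM and 4889 on counts, with 6 and 3 members, and the block changed no call of a member. Without control replicate 2 the listed cofactors, turnover genes, targets and neighbours kept their numbers of higher and lower genes on FPKM, and 1 of Mga and Mlxip passed, in the lower direction. Leaving out 1 replicate gave 6577 to 7919 genes on FPKM and 4610 to 5662 on counts. Control replicate 2 had the fewest counts, which limits low genes such as Mxd3 most in the controls.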
